A study of Mus musculus with 12 samples.

Results

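The genes described here are 9 enzymes of bile acid synthesis, Cyp7a1, Cyp8b1, Cyp27a1, Cyp7b1, Hsd3b7, Akr1d1, Amacr, Slc27a5 and Baat, chosen by gene symbol. All 9 were found among the 30743 rows of the deposited table. RNA was taken from whole livers of male C57BL/6J mouse fetuses at 15 ± 0.5 days of gestation and sequenced after polyA selection. The dams of 6 fetuses ate a control diet (Control, 13.5 kcal% fat) and those of the other 6 a high-fat diet (HFD, 60 kcal% fat), each for 12 to 14 weeks, in a study of how maternal HFD and obesity act on fetal hematopoiesis. Which fetuses shared a dam is not stated in the labels.

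Each value below is the authors' average log2 CPM (log2 of CPM, the reads of a gene scaled to a common library size) of a gene over all 12 livers, both diets together. Values of single livers and the diet comparison were not analysed here, so no level has an SD and no difference between Control and HFD is given. The spread between livers is therefore not part of any interval below. In whole liver RNA, fewer cells of a type and less RNA per cell cannot be told apart.

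Bile acids are made from cholesterol in hepatocytes. In the classic pathway Cyp7a1 hydroxylates cholesterol at the 7α position as the rate-limiting step, and Cyp8b1 adds the 12α hydroxyl group that distinguishes cholic acid. In the alternative pathway Cyp27a1, a mitochondrial enzyme, oxidizes the side chain and Cyp7b1 hydroxylates the resulting oxysterols. Cyp27a1 also oxidizes the side chain in the classic pathway, so it does not mark the alternative one, with which it is grouped here. Hsd3b7 and Akr1d1 modify the sterol ring in both pathways, Amacr inverts a side chain carbon before peroxisomal shortening, and Slc27a5 and Baat activate bile acids and join them to taurine or glycine.

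Reads were detected for all 9 genes, and 7 of them lay above 1 CPM, as did 51.8% of the 19652 rows with reads. The members' median level per kilobase of exon was 3.48 CPM, and that of 14503 protein-coding rows with reads was 0.429 CPM per kilobase. Amacr, Slc27a5 and Akr1d1 together gave 83.0% of the reads of the 9 genes. Cyp7b1 and Hsd3b7 were listed just under 1 CPM.

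**Figure D1:**
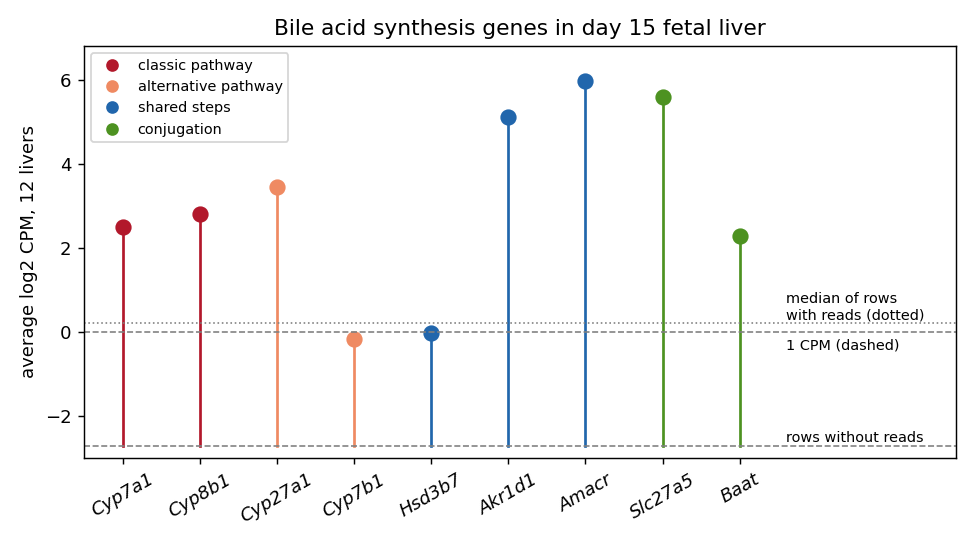
Average log2 CPM over 12 livers of each member, ordered and coloured by its place in the pathway, with stems drawn from the value of rows without reads (-2.71). Akr1d1, Amacr and Slc27a5 stand above 5, and Cyp7b1 and Hsd3b7 lie below the line of 1 CPM.

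A low value in this table could not be read as little RNA. Of 31 proteasome subunits, which every cell needs, 6 were listed below 1 CPM, at 0.197 to 0.704 CPM, although the median of the 31 was 197.6 CPM. Hnf4a, a defining transcription factor of hepatocytes, and Por, the reductase that passes electrons to microsomal P450 enzymes, were both listed at the lowest value of the table, the value of rows without reads. Alas2, the erythroid heme synthesis enzyme, was listed at 0.704 CPM, while the red cell membrane gene Slc4a1 stood at 12037 CPM. Some proteasome subunits above 1 CPM also lay far under the median of the list, among them Psmd11 at 8.96 CPM and Psmb5 at 25.4 CPM. The levels are thus given as listed, and whether reads were lost from Cyp7b1, Hsd3b7 or the other members was not tested.

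The livers carried both of the tissues that fetal liver is known for. Alb, the albumin gene, had 63314 CPM, and 6 of 8 hepatocyte markers lay above 1 CPM. Of the 4 erythroid markers in the table, 3 lay above 1 CPM, with Klf1, an erythroid transcription factor, at 692.3 CPM.

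In the classic pathway, Cyp7a1 (chr4:6265612-6275633, minus strand, mm10) had an average log2 CPM of 2.50, or 5.67 CPM. That corresponds to an estimated 869 reads in the 12 livers together (95% Poisson interval 812.2 to 928.8, counting error only). Reads were estimated from the height of a value above that of rows without reads, for an average library of 13129752 reads. Cyp8b1, a gene of 1 exon at chr9:121914356-121916305 on the minus strand, had a log2 CPM of 2.79, or 6.93 CPM, from an estimated 1068 reads. Per kilobase of exon, Cyp8b1 was 2.63 times as high as Cyp7a1 (95% interval 2.40 to 2.88, exact binomial, counting error only). With the coding length in place of the exon length this ratio was 1.24, since the exons of Cyp7a1 span 4174 bases and its coding part 1509.

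The bases before the start of Cyp8b1 are shown because they hold matches to a hepatocyte-type element and to the core of a TATA box. The sequence is that of RefSeq on GRCm38.p6, chr9:121916306-121916555, minus strand, and capitals mark the matches.
Cyp8b1: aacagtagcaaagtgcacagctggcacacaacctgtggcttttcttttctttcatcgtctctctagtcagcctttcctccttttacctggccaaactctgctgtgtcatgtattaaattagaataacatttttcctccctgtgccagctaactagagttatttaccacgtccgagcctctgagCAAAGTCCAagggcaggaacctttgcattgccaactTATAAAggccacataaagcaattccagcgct

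The match CAAAGTCCA, a form of the site that HNF4A binds, lay 67 to 59 bases before the start. It was present on either strand in 0.38% of 32851 windows of 250 bases before the starts of RefSeq genes. TATAAA lay 31 to 26 bases before the start and was present in 12.4% of windows. A match of letters does not show that a factor was bound in these livers.

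The members grouped with the alternative pathway were listed far apart in level. Cyp27a1 (chr1:74713574-74737892, plus strand) had a log2 CPM of 3.45, or 11.0 CPM, from an estimated 1703 reads (95% interval 1623 to 1786). Cyp7b1 (chr3:18071950-18243338, minus strand) had a log2 CPM of -0.18, or 0.881 CPM, from an estimated 115 reads (94.9 to 138.0). Per kilobase, Cyp27a1 was listed 14.8 times as high as Cyp7b1 (95% interval 12.2 to 18.0). It was also listed 3.76 times as high as Cyp7a1 (3.47 to 4.09). Cyp7a1 in turn was listed 3.93 times as high per kilobase as Cyp7b1 (3.23 to 4.81), which also hydroxylates the 7α position. With the coding length, Cyp27a1 was 1.85 times as high as Cyp7a1, and Cyp7a1 was 7.63 times as high as Cyp7b1. These ratios do not measure how much each pathway was used, and whether reads were lost from Cyp7b1 was not tested.

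The corresponding bases of Cyp27a1 are shown for comparison with those of Cyp8b1. The Cyp27a1 bases lie at chr1:74713285-74713534 on the plus strand of GRCm38.p6. Capitals mark CCAAT and GGGCGG, each read as its reverse complement (ATTGG and CCGCCC).
Cyp27a1: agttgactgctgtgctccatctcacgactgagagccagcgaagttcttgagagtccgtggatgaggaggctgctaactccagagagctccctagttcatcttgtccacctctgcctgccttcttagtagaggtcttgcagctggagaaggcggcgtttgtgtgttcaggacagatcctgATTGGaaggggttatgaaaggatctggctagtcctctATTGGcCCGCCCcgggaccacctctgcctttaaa

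The Cyp27a1 window was 54.0% G and C with 7 CpG pairs, and the Cyp8b1 window 44.8% with 4. The median over all 32851 windows was 52.4% with 6 pairs. CCAAT was present in 33.8% and GGGCGG in 32.7% of windows on either strand. Windows of 4 of the 9 members were searched, and the others were Akr1d1 (45.2%, 1 CpG pair) and Hsd3b7 (58.0%, 1 pair). GGGCGG also occurred in that of Hsd3b7, and none of the searched letters in that of Akr1d1. The letters CAAAGGTCA, found in 0.43% of all windows, and CAAGGTCA, a form of the NR5A2 site found in 1.33%, occurred in none of the 4.

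Among the members grouped as shared steps, Hsd3b7 was listed far below the others. Amacr (chr15:10981756-10996626, plus strand) had the highest level of the 9 genes, with a log2 CPM of 5.95, or 62.0 CPM, and an estimated 9749 reads (95% interval 9556 to 9945). Akr1d1 (chr6:37530173-37568815, plus strand), the 5β-reductase that bends the sterol ring, had a log2 CPM of 5.10, or 34.3 CPM, from 5376 reads. Hsd3b7 (chr7:127800604-127803802, plus strand), the dehydrogenase that acts before Akr1d1, had a log2 CPM of -0.02, or 0.983 CPM, from 131 reads (109.5 to 155.4). Akr1d1 was thus listed 39.3 times as high per kilobase as Hsd3b7 (95% interval 33.0 to 47.1).

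In GENCODE M21, 62.0% of the 2769 exon bases of Hsd3b7 are shared with Gm49388, a gene on the same strand, and 62.4% with 9430064I24Rik on the opposite strand. Neither symbol was a row of the table, and no exon base of the other 8 members was shared with another gene. Reads from opposite strands are not told apart by the library kit. Hsd3b7 was also the only member with 2 curated RefSeq transcripts, while the others had 1. Of all genes with 1 such transcript, 48.4% lay above 1 CPM, against 42.7% of those with 2 and 38.3% of those with 3 or more. The part of shared bases and of transcript number in the value of Hsd3b7 was not tested.

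The conjugation enzymes were also listed at different levels. Slc27a5 (chr7:12988346-12998192, minus strand), the bile acyl-CoA synthetase, had a log2 CPM of 5.58, or 47.8 CPM, from an estimated 7503 reads (95% interval 7334 to 7675). Baat (chr4:49489422-49506557, minus strand), the acyltransferase that follows it, had a log2 CPM of 2.28, or 4.87 CPM, from 743 reads (690.5 to 798.4). Slc27a5 was listed 8.04 times as high per kilobase as Baat (95% interval 7.46 to 8.68, counting error only). With the coding length this ratio was 6.16. Whether reads were lost from Baat was not tested.

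**Figure D2:**
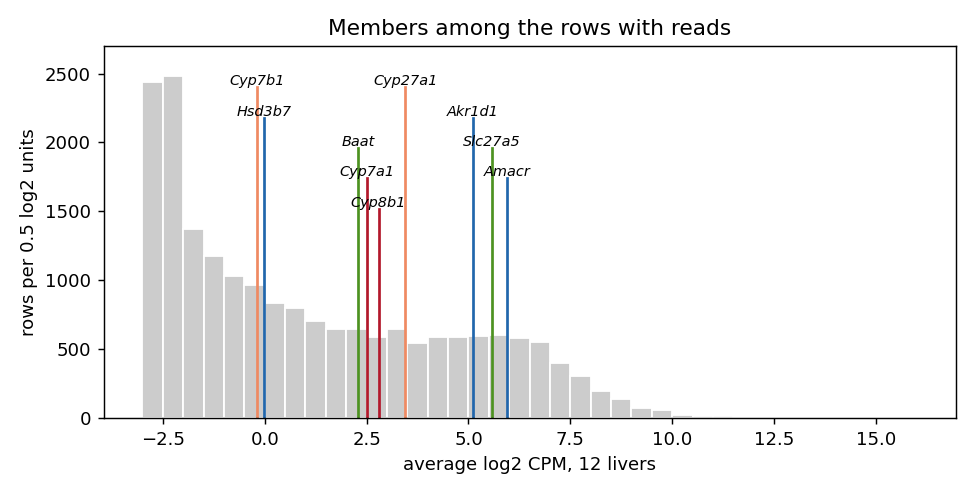
Number of rows with reads in each step of 0.5 on the average log2 CPM scale, with a line at the value of each member, coloured as in the plot of levels by pathway step. Cyp7b1 and Hsd3b7 lie just below the median of these rows (0.20) and Amacr lies above 87.6% of them; the line heights carry no value.

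Because a long transcript gives more reads than a short one, the genes were ordered by CPM per kilobase of exon, with the prior count taken off. In that order Amacr stood at 23.7 CPM per kilobase, Slc27a5 at 19.5, Akr1d1 at 11.8, Cyp27a1 at 4.97, Cyp8b1 at 3.48, Baat at 2.43, Cyp7a1 at 1.32, Cyp7b1 at 0.336 and Hsd3b7 at 0.300. Amacr lay above 88.6% of the protein-coding rows with reads on this scale, Cyp7a1 above 60.9% and Hsd3b7 above 46.3%. Amacr was listed 79.1 times as high as Hsd3b7 (95% interval 66.6 to 94.7).

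With reads taken as independent, neighbours in the order were separated by more than counting error. Cyp7b1 and Hsd3b7 were the exception, with a ratio of 1.12 and an interval from 0.865 to 1.45. The smallest of the other steps was that from Amacr to Slc27a5, a ratio of 1.22 (1.18 to 1.25), or 2.35 with the coding length. Whether neighbours differ beyond the spread between livers is not known from an average. The order also depended on the length used: with the coding length, Akr1d1 stood above Slc27a5 and Hsd3b7 above Cyp7b1, and Baat and Cyp7a1 were within 1.02 times of each other.

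**Figure D3:**
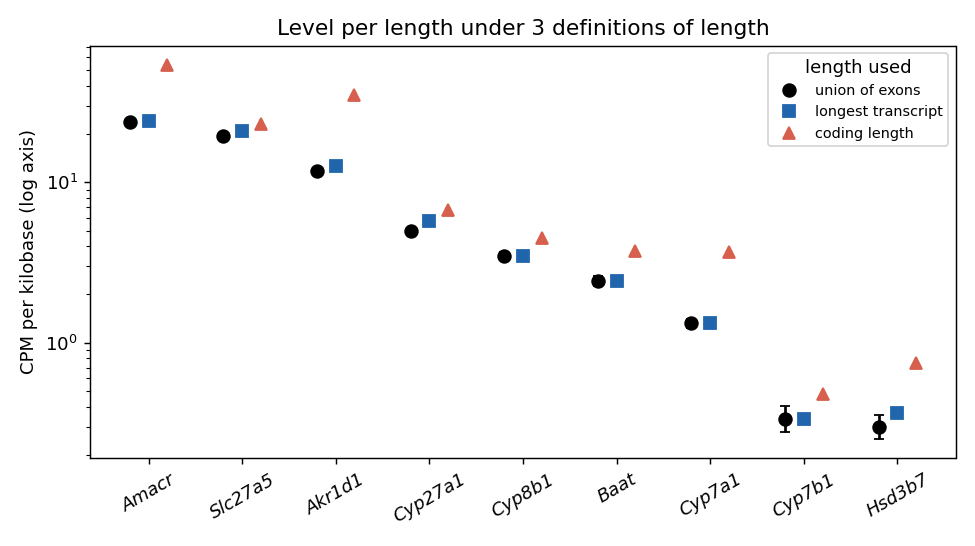
CPM per kilobase on a log axis for each member, with the level divided by the length of all exons (circles, with the 95% counting interval), of the longest transcript (squares) or of the coding part (triangles). The circles fall from 23.7 for Amacr to 0.300 for Hsd3b7, and the coding length raises Akr1d1, Cyp7a1 and Hsd3b7 most.

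Of 9 peroxisomal genes listed around the shortening of the side chain, among them genes of activation, transport and import, 7 lay above 1 CPM, with a median of 13.4 CPM per kilobase. Slc27a2, the very long chain acyl-CoA synthetase, stood at 70.8 CPM per kilobase, Scp2, the thiolase and sterol carrier, at 55.3 and Hsd17b4, the D-bifunctional protein, at 46.2. Acox2, the branched-chain oxidase of bile acid precursors, was lower at 1.48. Pex5, the import receptor of peroxisomes, was listed at the lowest value of the table, as Por and Hnf4a were.

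Of the 6 genes listed as other sterol hydroxylases, 3 lay above 1 CPM. Cyp2c70, which makes the muricholic acids of mice, stood at 13.7 CPM per kilobase, 10.4 times the level of Cyp7a1 on that scale. That ratio was not computed with the coding length, with which the ratio of Cyp8b1 to Cyp7a1 fell from 2.63 to 1.24. Cyp51 was highest at 71.2 CPM per kilobase, but it is an enzyme of cholesterol synthesis and not of bile acid synthesis. Ch25h and Cyp46a1 lay below 1 CPM, and Cyp39a1 was listed at the lowest value.

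Among cofactors and carriers of cholesterol, 5 of 7 lay above 1 CPM. Cyp27a1 takes its electrons from Fdxr and Fdx1, which stood at 21.4 and 2.65 CPM per kilobase. Of 4 genes of cholesterol supply, 3 lay above 1 CPM, with Soat2, which esterifies cholesterol in hepatocytes, at 64.2 CPM per kilobase.

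Regulators of the pathway were spread widely, with 8 of 16 above 1 CPM and a median of 0.603 CPM per kilobase. Nr1h4, the bile acid receptor FXR, stood at 1.20 CPM per kilobase and Nr0b2, the repressor SHP that it induces, at 0.507. Fgfr4 and Klb, which form the hepatocyte receptor for the intestinal hormone FGF15, stood at 0.766 and 15.6, and Fgf15 itself had an estimated 5 reads in all 12 livers.

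Transporters of bile acids and lipids were the lowest of these lists, with 5 of 12 above 1 CPM and a median of 0.0654 CPM per kilobase. Slc10a1, which takes up bile acids from blood, and Abcb11, which exports them into bile, had an estimated 31 and 34 reads in the 12 livers. Abcc2, an exporter of conjugates, stood at 20.9 CPM per kilobase and Abcb4, which exports phospholipid, at 10.4. As with Cyp7b1 and Hsd3b7, whether the low entries reflect lost reads was not tested.

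**Figure D4:**
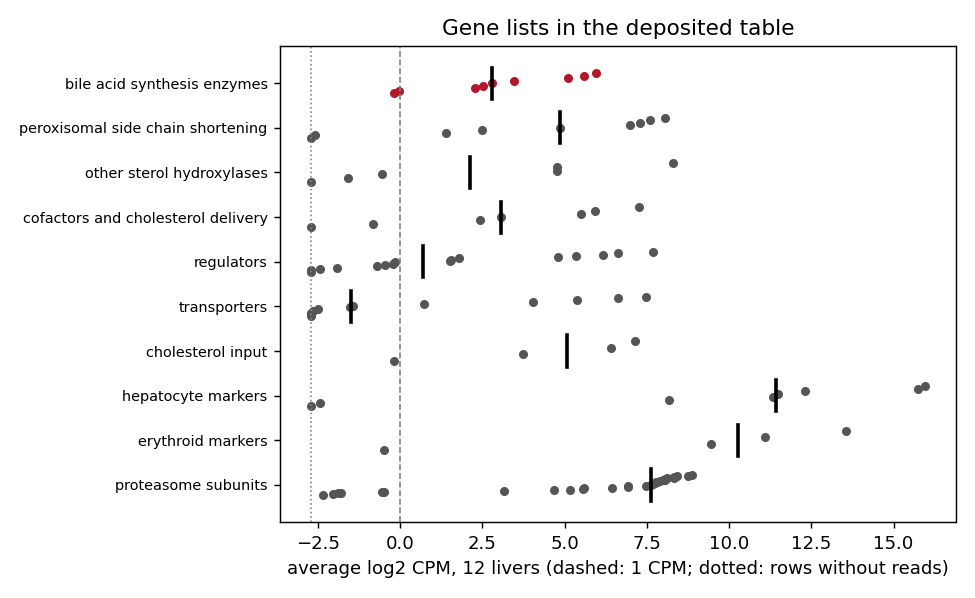
Average log2 CPM of each gene of 10 lists (points, with a bar at the median), the members in red, with vertical lines at 1 CPM and at the value of rows without reads. The members' median was 2.79, and 6 of the 31 proteasome subunits lie apart from the rest, below 1 CPM.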

How the data were processed

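The authors aligned reads to mm10 with Subread 1.3.6-p1 and ran edgeR, and the submitters' processing notes also name cutadapt 1.2.1. How reads were counted per gene and normalized is not given in the sources used here. The authors deposited the average log2 CPM over the 12 livers in the table analysed, with 0 rows differing between its copies for the common and tagwise dispersions. Its 8 other value columns hold the authors' fold changes, p-values and adjusted p-values for the diets and were not used. No diet test was run.

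The lowest value, -2.71, was shared by 11091 rows. With a prior count of 2, assumed as the default of edgeR in the run by the authors, it gave a mean effective library of 13129752 reads, and total reads per gene. All 3149 rows estimated at 1 to 5 reads lay within 0.1 of a whole read. The calculation was run on simulated libraries of similar depth made with the same prior count. That run cannot test the assumed prior count or the effect of unequal depths. Poisson and Clopper-Pearson intervals of 95% cover counting error only and take reads as independent. PCR copies are not independent molecules, so these intervals may be too narrow. Lengths and positions came from GENCODE M21 (GRCm38, the assembly of mm10) and 250 bases upstream from RefSeq, which held 4 of the 9 members. Proteins were not analysed here. Genes named are the members and fixed pathway and marker lists, of which 1 gene is not reported here. Members and lists were chosen with earlier results of these data known. The proteasome list, transcript numbers and motifs were chosen after the levels were seen. Computations ran in Python 3.11.15 with scipy 1.17.1, pandas 2.3.3 and numpy 2.4.6, and plots were drawn with matplotlib 3.10.9.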

Additional observations from a re-analysis of the deposited data

How the results depend on the processing

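The number of members above 1 CPM was 7, and 9 lay above 0.5 CPM and 6 above 5 CPM. The ratio of Amacr to Hsd3b7 per kilobase, 79.1, was 66.1 with the longest transcript, 72.1 with the coding length and 67.0 with the prior count kept, the last chosen after seeing the data. The order turned for Slc27a5 over Akr1d1, which was 0.658 with the coding length, and for Cyp7b1 over Hsd3b7, which was 0.925 with the longest transcript and 0.638 with the coding length. Of the 42 alternative ratios per kilobase, 26 kept their direction within the counting interval of the main value, 13 moved outside it in the same direction and 3 turned, of which that of Cyp7b1 over Hsd3b7 with the longest transcript also lay within the interval. With the coding length, Akr1d1 over Cyp27a1 was 5.18 in place of 2.37.

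Leaving out livers, other normalizations and filters, and DESeq2 were planned for a diet comparison and were not run, since they need values of single livers. No paired analysis was possible because the values are averages over all livers. The depth of each liver is not known, and the counting interval of Cyp7b1 ran from 94.9 to 138.0 around 115 reads.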

Other observations

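Markers of other cell types and tissues were listed beside the bile acid genes. Of all rows with reads, 51.8% lay above 1 CPM. Counts of markers above 1 CPM alone therefore do not show that a cell type or tissue was present. Of 5 biliary markers, 4 lay above 1 CPM, with Krt19 at 3.20 and Epcam at 2.51 CPM per kilobase, on the scale where Cyp8b1 stood at 3.48 and Baat at 2.43. Of 4 intestinal markers 2 lay above 1 CPM, led by Fabp2, the intestinal fatty acid binding protein, at 15.8 CPM per kilobase, and Cdx2 and Muc2 lay below it. Of 4 pancreatic markers 3 did, led by Ctrb1 at 14.1 CPM per kilobase, with Ptf1a at an estimated 11 reads. All 3 stellate cell markers, 2 of 3 endothelial markers and 3 of 5 markers of other blood cells lay above 1 CPM, with Mpo, the granule enzyme of granulocyte precursors, at 758.6 CPM. The endothelial marker Pecam1 was listed at the lowest value, and the blood cell markers Ptprc and Csf1r at 0.774 and 0.684 CPM. Spp1, a biliary marker, had an estimated 2 reads. The part of these cells in the levels of the bile acid genes was not tested.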
